A study of Rattus norvegicus with 18 samples.

Results

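The Slc25 genes encode the mitochondrial carrier family. In the gene-level FPKM table of a rat liver RNA-seq study, 47 of 33657 rows carried a symbol of the form Slc25a plus a number, with Slc25a20, the carnitine and acylcarnitine carrier, left out by the rule. The members were taken by name alone, so carriers with other symbols, such as Ucp2, were not among them. The family itself was chosen with earlier results of these data known. The table held 18 libraries from livers of male rats at 18 weeks of age, 3 in each of 6 groups. In 5 groups the rats were obese: 1 was given orlistat, a lipase inhibitor used as the positive control, 3 were fed plantain at a low, a medium or a high dose, and the obese control had only water. The last group was the normal control, healthy rats on water. How obesity was induced, the strain and the amounts of plantain and orlistat were not given in the labels, nor whether each library came from its own animal. The p-values therefore measure the spread between libraries, and the treated groups had no counterpart in healthy rats.

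Carriers of this family sit in the inner mitochondrial membrane, apart from a few in the outer membrane or in peroxisomes, and exchange solutes between the cytosol and the matrix. They bring in ADP and phosphate and send out ATP for oxidative phosphorylation. They move citrate, malate and other organic acids, and in liver they join the cytosolic and mitochondrial sides of fatty acid synthesis, gluconeogenesis and the urea cycle. Others carry amino acids, nucleotides, cofactors, iron or glutathione, and some have no settled substrate.

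Values are FPKM, reads for each kilobase of gene, scaled to the reads of the library, so levels can be set side by side between genes. Differences were tested with limma on log2(FPKM + 1) in the 11945 genes that reached 1 FPKM in 3 or more libraries, and a gene was called at an adjusted p below 0.05. A log2 difference on this scale understates the change of genes near 1 FPKM. The libraries held 16.6 to 26.2 M reads recovered from the FPKM values. Summed hepatocyte marker levels were 80020 to 99070 FPKM in single libraries, so the tissue was liver by its markers, and muscle markers summed to 0.507 to 1.92 FPKM. Other cell types moved with the groups. In the obese control against the normal control, 26.7% of all genes tested were higher. So were 11 of 11 Kupffer cell, 5 of 9 red blood cell and 5 of 8 endothelial markers tested. Summed Kupffer cell markers were 317 to 327 FPKM in obese control libraries and 189 to 190.1 FPKM in normal control libraries. Against the obese control 3 of these markers rose and 1 fell in orlistat, where 26.2% and 25.6% of all genes did. At the low dose 10 rose, against 18.3% of all genes. At the medium dose 10 fell and at the high dose 9, against 20.1% and 25.3% of all genes. Of 8 endothelial markers, 7 were higher in each treatment than in the obese control, against 18.3% to 26.6% of all genes. The part of these cell types in the carrier results was not tested. In bulk liver, fewer cells of a type and less RNA per cell cannot be told apart.

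Of the 47 members, 36 reached 1 FPKM in at least 1 group mean, and the same 36 passed the filter of the test. The 47 members summed to 1260 ± 2.8 FPKM in orlistat, 1285 ± 12 in low-dose, 1265 ± 9.4 in medium-dose and 1292 ± 9.5 in high-dose plantain, against 1228 ± 4.7 in the obese control (SD, n = 3 each). The same obese control sum stood against 1629 ± 9.5 FPKM in the normal control. The normal control libraries thus lay above all others, and the 6 most abundant carriers made up 58.4% to 63.8% of the sum in each library. Of the 36, 18 had their highest group mean in the normal control and 11 had their lowest in the obese control. The same count was not made for all genes, so whether it is particular to carriers was not tested.

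The most abundant carrier by its mean over all libraries was Slc25a5, the ADP/ATP exchanger ANT2 of non-muscle cells. It stood at 162 FPKM in orlistat, 167, 166 and 166 FPKM in the rising plantain doses, 163 FPKM in the obese control and 196 FPKM in the normal control. Its muscle and heart counterpart Slc25a4 (ANT1) had 4.66, 3.95, 4.48, 4.65, 3.47 and 3.07 FPKM in the same order. Slc25a5 thus exceeded Slc25a4 by 35.2 ± 4.6 times in orlistat, 47.3 ± 5.4 times in the obese control and 64.3 ± 6.1 times in the normal control (SD, n = 3 each). Citrin (Slc25a13), the liver form of the aspartate/glutamate carrier that feeds the malate-aspartate shuttle and the urea cycle, stood at 89.2 to 116 FPKM across group means. Its muscle and brain counterpart aralar (Slc25a12) stood at 2.49 to 3.07 FPKM. Both pairs thus showed the liver form far above the muscle form in every library.

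The phosphate carrier Slc25a3, which supplies ATP synthase, ranged over 129 to 141 FPKM across group means, the narrowest of the leading 6. Slc25a15, the ornithine/citrulline carrier of the urea cycle, ranged over 107 to 136 FPKM. Slc25a47, a carrier found mainly in liver, and the dicarboxylate carrier Slc25a10, which exchanges malate or succinate for phosphate, completed the leading 6, with wider ranges of 109 to 298 and 78.7 to 149 FPKM. In the 36 members, the highest group mean was a median of 1.41 times the lowest, and 8 members differed by at least 2 times. The median coefficient of variation within a group was 5.3%.

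The other 11 members were below 1 FPKM in every group mean, are taken here as not expressed, and were not tested. They were Slc25a45, Slc25a51 (the mitochondrial NAD carrier), Slc25a24, Slc25a2, Slc25a6, Slc25a27, Slc25a52, Slc25a54, Slc25a18, Slc25a31 and Slc25a41. Slc25a31, the ADP/ATP carrier of testis, had 1 read in 1 library and Slc25a41 had none in any. Slc25a6 and Slc25a52 are annotated as pseudogenes in the table, and reads of such near copies can be split between rows. The low rows included a second form of several expressed carriers: the glutamate carrier Slc25a18 was at 0 in 15 of 18 libraries while Slc25a22 was measured in all. Likewise the calcium-regulated ATP-Mg/phosphate carrier Slc25a24 averaged 0.494 FPKM, while its relatives Slc25a23 and Slc25a25 stood at 59.6 to 72.9 and 45.4 to 72.4 FPKM across group means.

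**Figure D1:**
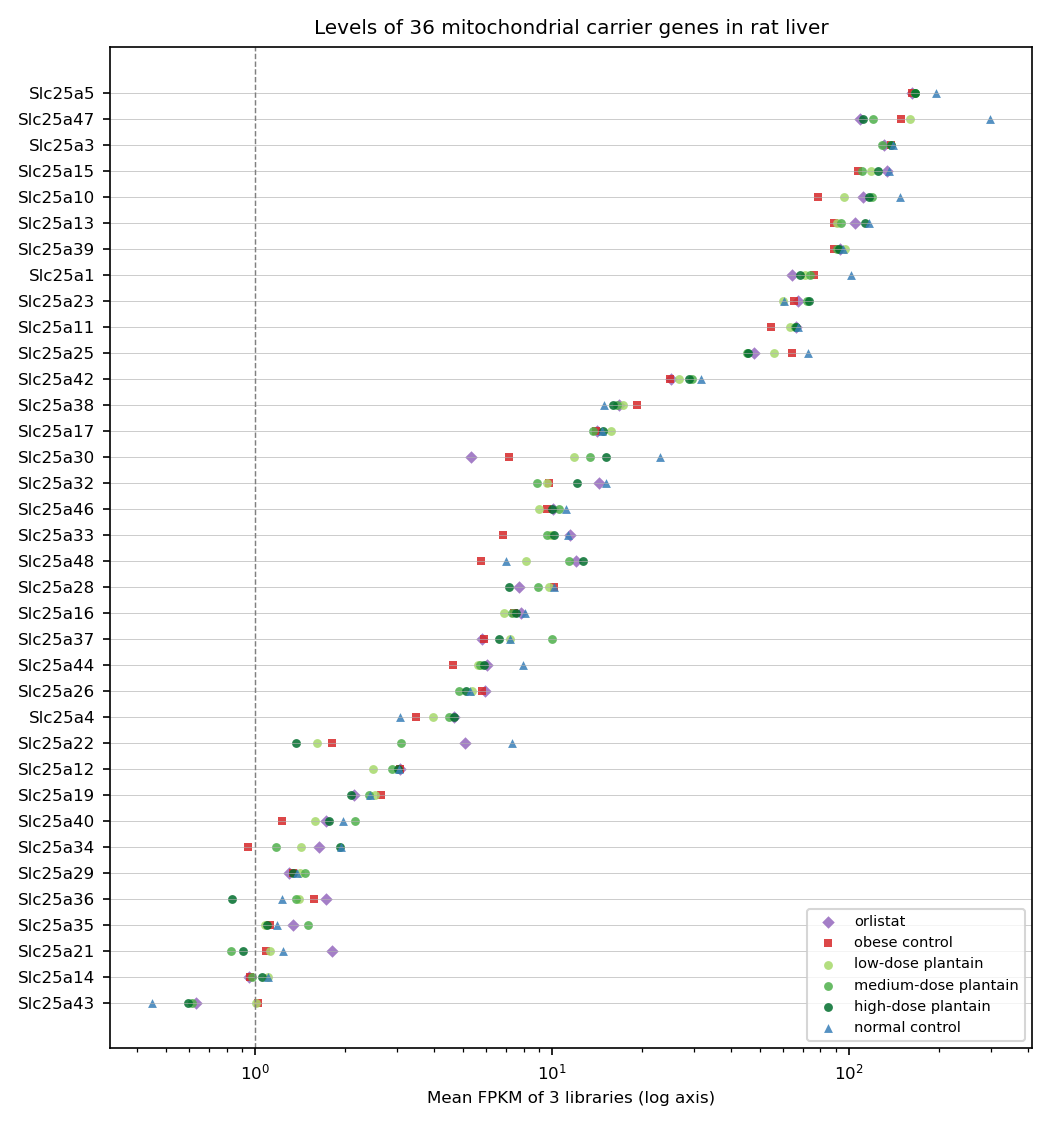
Mean FPKM of 3 libraries (log axis) for the 36 expressed carriers, ordered by their mean over all libraries, with 1 symbol for each group; the dashed line marks 1 FPKM. Slc25a5, Slc25a47, Slc25a3, Slc25a15, Slc25a10 and Slc25a13 lead. The widest rows are Slc25a22, Slc25a30, Slc25a47, Slc25a43, Slc25a48, Slc25a21, Slc25a36 and Slc25a34.

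Position tied some members together. In the coordinates of the table, whose build is not named, 4 pairs lay less than 100 kb apart, and each paired a high row with a low one or 2 low ones. Slc25a43 (0.448 to 1.02 FPKM) lay 19671 bases from Slc25a5 on chromosome X, and Slc25a29 (1.29 to 1.47 FPKM) lay 14451 bases from Slc25a47 on chromosome 6. Slc25a41, with no read, lay 2842 bases from Slc25a23 on chromosome 9. Slc25a35 overlapped Rangrf, which averaged 5.49 FPKM, and Slc25a46 overlapped Sap130, at 2.68 FPKM, both on opposite strands. Whether reads were counted by strand was not given, so the reads of these overlapping genes cannot be told apart.

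In obese control liver, carriers were mostly lower than in normal control liver. Of the 36 tested, 19 fell and 3 rose, against 28.4% of all 11945 genes that fell and 26.7% that rose, and the members' median log2 difference was -0.19 against 0.00 for all genes. The 2 groups did not overlap for 23 members (63.9%), against 62.5% of all genes. Rescaled to TPM, where the median of all genes moved to -0.095, 24 of the 40 members that passed the filter on that scale fell (60.0%) and 3 rose (7.5%), against 35.1% and 15.3% of all 13304 genes.

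Slc25a30, Slc25a22, Slc25a47 and Slc25a10 had the deepest falls. Slc25a30, a relative of the uncoupling proteins first described in kidney, stood at 6.38, 8.34 and 6.75 FPKM in obese control libraries, against 23.9, 22.8 and 22.4 FPKM in normal control libraries. All obese control values were below all normal control values, the mean was 31.1% of the normal control mean, and the log2 difference was -1.56 ± 0.07 SE, adjusted p = 1.9e-11. Slc25a47 had 149.5, 149 and 148 FPKM in the obese control, against 295, 299.9 and 299 FPKM in the normal control. The 3 libraries of each group lay close together, and the obese control mean was 49.9% of the normal control mean, a log2 difference of -0.997 ± 0.02 SE, adjusted p = 2.8e-15. Slc25a10 had 77.8, 79.4 and 78.9 FPKM in the obese control, against 148, 149.9 and 148 FPKM in the normal control. Here too the groups lay far apart, with a log2 difference of -0.91 ± 0.02 SE, adjusted p = 7.9e-14.

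Slc25a22, the main mitochondrial glutamate carrier, had 1.72, 1.80 and 1.92 FPKM in the obese control, against 6.36, 5.39 and 10.1 FPKM in the normal control. The groups did not overlap and the log2 difference was -1.52 ± 0.38 SE, adjusted p = 0.0031. Its values were split within other groups: 5.18, 8.24 and 1.87 FPKM in orlistat and 1.69, 1.60 and 5.998 FPKM in medium-dose plantain, against 1.73, 1.48 and 1.62 FPKM in low-dose and 1.29, 1.53 and 1.28 FPKM in high-dose plantain. The largest ratio between libraries of 1 group was 4.40 for Slc25a22, against a median of 1.22 over the 36 members. Some genes beside it on chromosome 1 varied still more within groups. Rplp2, a ribosomal protein gene, had 110.0, 54.9 and 7.47 FPKM in the obese control, against 5.19, 143 and 113 FPKM in the normal control, with a largest ratio of 41.1 within a group. Pnpla2, the triglyceride lipase ATGL, had a largest ratio of 16.9, while Taldo1, in the same 30 kb window, had 1.07. The part of this local variation in the Slc25a22 values was not tested.

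The promoters of Slc25a10, Slc25a22 and Slc25a47 are shown because these carriers had 3 of the 4 largest falls. They are RefSeq sequences of the rat build GRCr8 from 250 bases before to 50 bases after the gene start, 5′ to 3′ on the gene's strand. Capitals mark the CCAAT box (CCAAT), GC box (GGGCGG) and cAMP response element core (TGACG) found on either strand.
Slc25a10, chr10:106264146-106264445, plus strand: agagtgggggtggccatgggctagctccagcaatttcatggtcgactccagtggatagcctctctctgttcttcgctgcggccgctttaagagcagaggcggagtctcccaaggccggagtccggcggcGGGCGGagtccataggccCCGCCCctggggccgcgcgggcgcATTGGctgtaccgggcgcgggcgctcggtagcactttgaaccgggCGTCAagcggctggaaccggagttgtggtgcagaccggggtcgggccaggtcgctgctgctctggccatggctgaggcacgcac
Slc25a22, chr1:205965828-205966127, minus strand: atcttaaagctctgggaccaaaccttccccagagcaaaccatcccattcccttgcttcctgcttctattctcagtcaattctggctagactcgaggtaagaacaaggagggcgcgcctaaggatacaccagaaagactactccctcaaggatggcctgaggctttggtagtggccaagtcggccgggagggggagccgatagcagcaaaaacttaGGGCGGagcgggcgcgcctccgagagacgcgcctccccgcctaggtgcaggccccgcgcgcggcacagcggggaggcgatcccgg
Slc25a47, chr6:133531491-133531790, plus strand: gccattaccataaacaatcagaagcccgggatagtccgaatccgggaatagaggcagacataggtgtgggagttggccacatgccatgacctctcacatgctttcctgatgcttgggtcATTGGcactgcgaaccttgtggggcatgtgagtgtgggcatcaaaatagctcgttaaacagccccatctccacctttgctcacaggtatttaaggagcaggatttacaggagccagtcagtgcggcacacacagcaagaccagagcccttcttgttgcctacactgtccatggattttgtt
Slc25a10 held 28 CpG pairs, 2 GC boxes, at 121 and 103 bases before the start, a CCAAT box and a cAMP response element core. Slc25a22 held 21 CpG pairs and 1 GC box at 35 bases before the start. The Slc25a47 window differed from both, with 6 CpG pairs, no GC box and 1 CCAAT box.

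Promoter sequence was matched by symbol for 39 of 47 members, and Slc25a30 was not among them. The GC box was in 22 of the 29 matched promoters of expressed carriers (75.9%) and in 66.7% of all 39 matched, against 33.1% of 33469 promoters. The CCAAT box was in 65.5% and 53.8%, against 37.5% of all promoters. The cAMP response element core was in 34.5% and 30.8%, against 21.2%. The 33469 promoters were not limited to genes expressed in liver, so whether these gaps are particular to carriers was not tested. The median number of CpG pairs was 21 in expressed carriers, 12 in the 10 matched carriers below 1 FPKM and 7 in all promoters. The E-box (CACGTG) was in 1 of the 29 promoters of expressed carriers (3.45%) and in 4 of all 39 matched (10.3%), against 6.42% of all promoters. The D-box (TTATGTAA) and the DR1 element, a direct repeat bound by nuclear receptors, were in none of the 39 windows, against 0.893% and 0.0538% of all. In the printed windows no match overlapped another, and a match is a description of letters, not of binding.

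By role, 3 of 4 tested organic acid carriers fell, where 28.4% of all genes did. Besides Slc25a10, the citrate exporter Slc25a1, which supplies acetyl units for fatty acid synthesis, had 74.6, 74.8 and 78.8 FPKM in the obese control, against 102, 102 and 99.5 FPKM in the normal control. These values did not overlap (log2 difference -0.41 ± 0.04 SE, adjusted p = 4.4e-07). The oxoglutarate/malate carrier Slc25a11 of the malate-aspartate shuttle fell by 0.30 on the log2 scale. The oxodicarboxylate carrier Slc25a21, at 1.09 FPKM in the obese control and 1.24 FPKM in the normal control, was not called.

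Of 7 amino acid carriers tested, 4 fell and 1 rose, where 28.4% of all genes fell and 26.7% rose. Slc25a44, which brings branched-chain amino acids into mitochondria, had 4.72, 4.56 and 4.58 FPKM in the obese control, against 8.4, 7.70 and 7.82 FPKM in the normal control, a gap with no overlap (log2 difference -0.67 ± 0.08 SE, adjusted p = 2.5e-06). Slc25a13 and Slc25a15, both tied to the urea cycle, fell by 0.38 and 0.34. The riser was Slc25a38, the glycine carrier of heme synthesis, with 19.2, 18.7 and 19.9 FPKM in the obese control, against 15.1, 14.6 and 15.2 FPKM in the normal control. It did not overlap between the groups (log2 difference 0.34 ± 0.05 SE, adjusted p = 1.8e-05). Summed red blood cell marker levels were 1392 to 1676 FPKM in obese control libraries and 865 to 915 FPKM in normal control libraries, and their part in the Slc25a38 rise was not tested.

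Of 7 cofactor and nucleotide carriers tested, 3 fell and none rose, against 28.4% and 26.7% of all genes. The pyrimidine nucleotide carrier Slc25a33 had 6.82, 6.996 and 6.69 FPKM in the obese control, against 10.8, 11.6 and 11.5 FPKM in the normal control (log2 difference -0.65 ± 0.04 SE, adjusted p = 4.5e-09). Slc25a32, which carries folate and FAD, had 10.2, 9.80 and 9.16 FPKM in the obese control, against 15.5, 15.3 and 14.8 FPKM in the normal control (log2 difference -0.59 ± 0.07 SE, adjusted p = 1.6e-06). For both carriers every obese control value was below every normal control value. The coenzyme A carrier Slc25a42 fell by 0.33.

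Of 6 tested carriers grouped here under energy transport, 2 fell and 1 rose, all by little. These counts were near the 28.4% and 26.7% of all genes. The group included Slc25a17, a peroxisomal carrier that could also be placed with the cofactor carriers. It was not called, at 14.0 FPKM in the obese control and 14.8 FPKM in the normal control. Slc25a5 fell by 0.27 and Slc25a25 by 0.18 on the log2 scale, and Slc25a23 had a log2 difference of 0.10 ± 0.03 SE, adjusted p = 0.013 that became -0.02 as TPM and was lost without normal control library 3 (0.08) or obese control library 2 (0.09). Slc25a3 did not pass the test (-0.02). Of the 4 iron and glutathione carriers 3 fell, against 28.4% of all genes. The importer Slc25a39, its relative Slc25a40 and mitoferrin 1 (Slc25a37) fell by 0.10, 0.42 and 0.25, while mitoferrin 2 (Slc25a28) had a log2 difference of 0.01. The Slc25a37 call was lost without normal control library 1 (-0.18) or obese control library 1 (-0.22). Among members with no settled substrate, Slc25a34 (19 to 75 reads in a library) fell by 0.60 and the outer membrane protein Slc25a46 by 0.20. Slc25a43 rose at a low level, with 0.96, 1.17 and 0.941 FPKM in the obese control, against 0.353, 0.557 and 0.435 FPKM in the normal control, on 17 to 60 reads in a library (log2 difference 0.48 ± 0.10 SE, adjusted p = 0.00075).

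**Figure D2:**
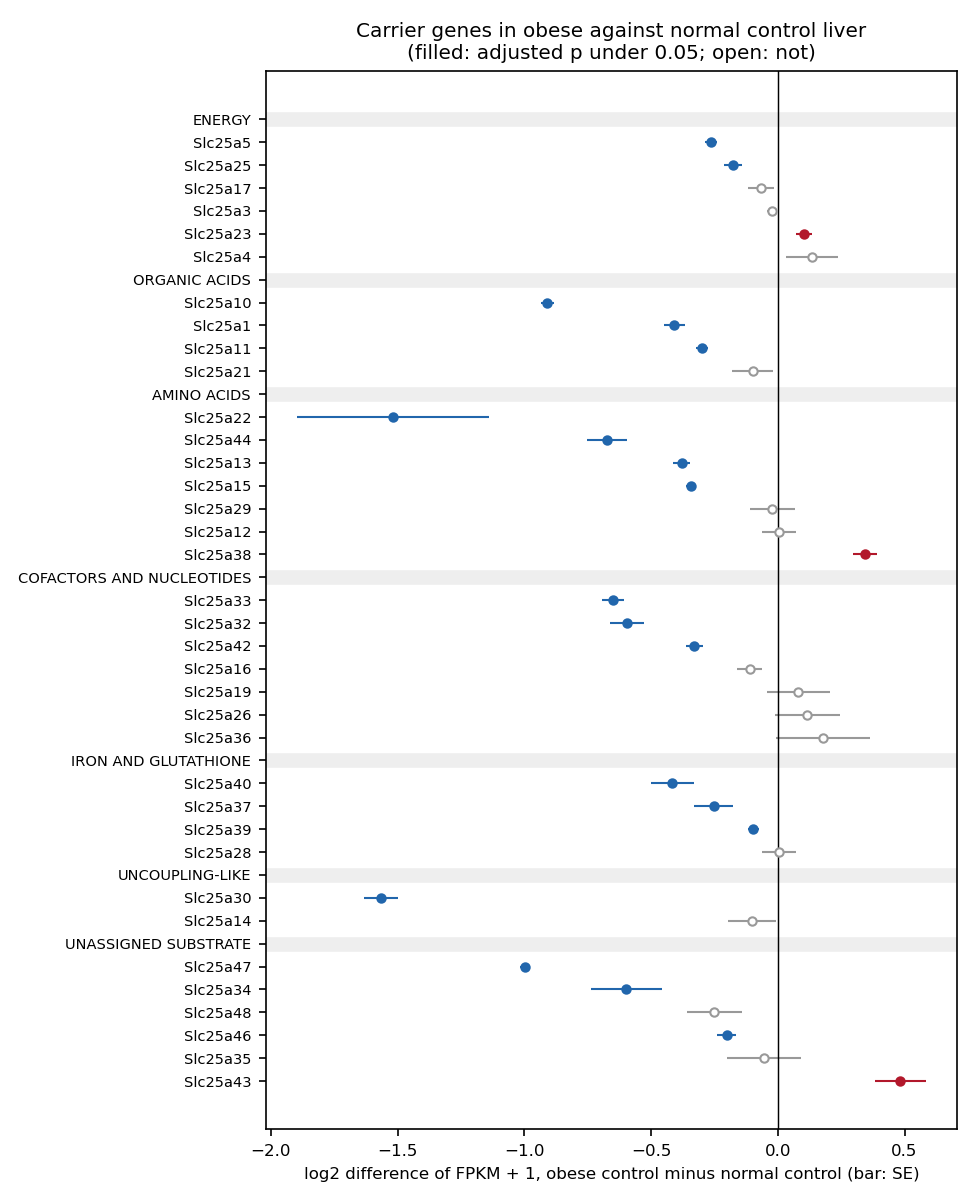
Log2 difference of FPKM + 1 (x axis), obese control minus normal control, with its SE as a bar, for 36 carriers sorted within role groups; filled points were called at an adjusted p below 0.05. Slc25a30, Slc25a22, Slc25a47 and Slc25a10 lie farthest left, and Slc25a38 and Slc25a43 farthest right.

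The 4 treatments were each set against the same 3 obese control libraries, so that the comparisons share these values. These libraries also entered the comparison with the normal control, with the opposite sign. A fall there and a rise in the treatments are therefore not independent results. In orlistat, 14 of 36 carriers rose and 8 fell, against 26.2% and 25.6% of all genes, and 22 (61.1%) did not overlap, against 58.2%. In low-dose plantain 12 rose and 4 fell, against 18.3% and 14.8%, and 21 (58.3%) did not overlap, against 44.8%. In medium-dose plantain 12 rose and 5 fell, against 21.8% and 20.1%, and 19 (52.8%) did not overlap, against 49.2%. In high-dose plantain 14 rose and 7 fell, against 26.6% and 25.3%, and 23 (63.9%) did not overlap, against 57.8%. The share of carriers that rose was thus above that of all genes in each treatment (38.9%, 33.3%, 33.3% and 38.9%). The share that fell (22.2%, 11.1%, 13.9% and 19.4%) was near that of all genes, a little below it in each treatment. Without low-dose library 3 the low-dose falls numbered 1.

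The members' median log2 differences were small: 0.05 in orlistat, 0.03 in low-dose, 0.04 in medium-dose and 0.05 in high-dose plantain, against -0.008, 0.01, 0.002 and -0.002 for all genes. The split of risers and falls depended on scaling. Rescaled to TPM, where 40 carriers passed the filter, 21 rose and 4 fell in orlistat (52.5% and 10%), against 38.9% and 12.1% of all 13304 genes. In low-dose plantain 14 rose and 2 fell (35.0% and 5.0%), against 20.2% and 10%, and in medium-dose plantain 16 and 3 (40.0% and 7.5%), against 28.8% and 11.1%. In high-dose plantain 21 rose and 5 fell (52.5% and 12.5%), against 40.2% and 11.6%, so the share that fell was not below that of all genes there. On that scale the median log2 difference of all genes was 0.13 in orlistat, 0.046 in low-dose, 0.08 in medium-dose and 0.15 in high-dose plantain, and the rises are relative to it. Slc25a22 was called in orlistat, but its orlistat and obese control values overlapped. Without orlistat library 2 its log2 difference was 0.58 (adjusted p = 0.22), and 9 alternatives in all ended the call.

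Slc25a48, whose human counterpart has been linked to choline import, rose in all 4 treatments and had the largest log2 rise of the 36 carriers at the medium and high doses. It had 11.8, 12.5 and 11.6 FPKM in orlistat, against 6.83, 5.59 and 4.85 FPKM in the obese control, a log2 difference of 0.95 ± 0.11 SE, adjusted p = 2.8e-06. In the plantain series its mean was 5.76 ± 1.0 FPKM in the obese control, 8.18 ± 1.1 at the low, 11.4 ± 1.2 at the medium and 12.7 ± 0.71 at the high dose (SD, n = 3 each). Values at the 3 doses were 8.59, 9.07 and 6.89 FPKM, 12.7, 11.3 and 10.3 FPKM and 13.3, 11.9 and 12.9 FPKM, none overlapping the obese control. The log2 differences from the obese control were 0.45, 0.88 and 1.03 in rising dose, and the slope was 0.35 ± 0.03 SE, adjusted p = 4.9e-07 in log2 units for each step. The normal control, at 6.16, 7.46 and 7.39 FPKM, lay near the obese control, which it overlapped.

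Slc25a10 also rose in all 4 treatments. It had 113, 109 and 111 FPKM in orlistat, against 77.8, 79.4 and 78.9 FPKM in the obese control (log2 difference 0.49 ± 0.02 SE, adjusted p = 2.7e-10). In the series it stood at 78.7 ± 0.82 FPKM in the obese control, 96.2 ± 0.15 at the low, 119.6 ± 4.7 at the medium and 117 ± 2.6 FPKM at the high dose, a slope of 0.20 ± 0.01 SE, adjusted p = 1.5e-11. The medium and high doses overlapped, the low dose lay between them and the obese control, and all stayed below the normal control's 149 ± 1.0 FPKM. Slc25a33 rose as well, to 11.7, 11.2 and 11.4 FPKM in orlistat, against 6.82, 6.996 and 6.69 FPKM in the obese control (0.67 ± 0.04 SE, adjusted p = 4.9e-09). At the low, medium and high doses it had 10.1, 9.26 and 10.2 FPKM, 9.97, 9.03 and 9.84 FPKM and 9.89, 10.5 and 10.1 FPKM, with log2 differences of 0.47, 0.44 and 0.51. The 3 doses overlapped each other and none overlapped the obese control. Slc25a11 and the branched-chain carrier Slc25a44 rose in all 4 as well, by 0.21 to 0.28 and 0.24 to 0.32. The low-dose call of Slc25a44 was lost without low-dose library 1 (0.23) or 2 (0.21) or obese control library 2 (0.23) or 3 (0.23), and the medium-dose call without medium-dose library 3 (0.20, adjusted p = 0.076).

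Slc25a30 moved oppositely in orlistat and plantain. It had 5.15, 5.34 and 5.42 FPKM in orlistat, against 6.38, 8.34 and 6.75 FPKM in the obese control, a fall with no overlap (log2 difference -0.36 ± 0.07 SE, adjusted p = 0.00032). In the plantain series it stood at 7.16 ± 1.0 FPKM in the obese control, 11.9 ± 0.64 at the low, 13.4 ± 0.53 at the medium and 15.1 ± 0.44 FPKM at the high dose. The low-dose values of 12.5, 11.2 and 11.8 FPKM, the medium-dose values of 13.7, 12.8 and 13.8 FPKM and the high-dose values of 14.6, 15.3 and 15.5 FPKM did not overlap each other, and the slope was 0.31 ± 0.02 SE, adjusted p = 7.3e-09 for each step. Set against orlistat directly, high-dose plantain was higher by 1.36 ± 0.07 SE, adjusted p = 1.7e-09. Even the high dose stayed below every normal control library.

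Slc25a47 fell in 3 of the 4 treatments. It had 105, 109 and 113 FPKM in orlistat, against 149.5, 149 and 148 FPKM in the obese control, a log2 difference of -0.45 ± 0.02 SE, adjusted p = 7.8e-11. In the plantain series it stood at 149 ± 0.61 FPKM in the obese control, 160.4 ± 1.6 at the low, 121 ± 1.6 at the medium and 112 ± 0.45 FPKM at the high dose. The low dose was higher than the obese control (0.11 ± 0.02 SE, adjusted p = 0.00082), and the medium and high doses were lower (-0.30 and -0.41). None of the 4 treated groups overlapped the obese control, and all lay far below the normal control. Of the 36 carriers it had the smallest p in the F-test of the 3 doses (adjusted p = 1.1e-10).

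Slc25a25, a calcium-regulated ATP-Mg/phosphate carrier, fell in all 4 treatments. It had 48.5, 48.0 and 46.8 FPKM in orlistat, against 62.7, 63.2 and 65.9 FPKM in the obese control (-0.41 ± 0.04 SE, adjusted p = 1.5e-07). At the low, medium and high doses it had 57.9, 54.6 and 55.3 FPKM, 45.01, 45.4 and 45.8 FPKM and 42.7, 46.7 and 47.8 FPKM, and the slope was -0.17 ± 0.01 SE, adjusted p = 6e-09. No treated library overlapped the obese control, which itself was below the normal control. Its relative Slc25a23 had 67.1 FPKM in orlistat and 59.6, 72.3 and 72.9 FPKM in rising dose, against 64.9 FPKM in the obese control. Slc25a23 was called higher at the medium and high doses (0.15 and 0.17) and lower at the low dose (-0.12), a call lost as TPM (-0.08) or without low-dose library 3 (-0.09). The ratio of Slc25a23 to Slc25a25 was 1.02 ± 0.036 in the obese control, 1.07 ± 0.047 at the low, 1.59 ± 0.048 at the medium and 1.60 ± 0.095 at the high dose (SD, n = 3 each).

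**Figure D3:**
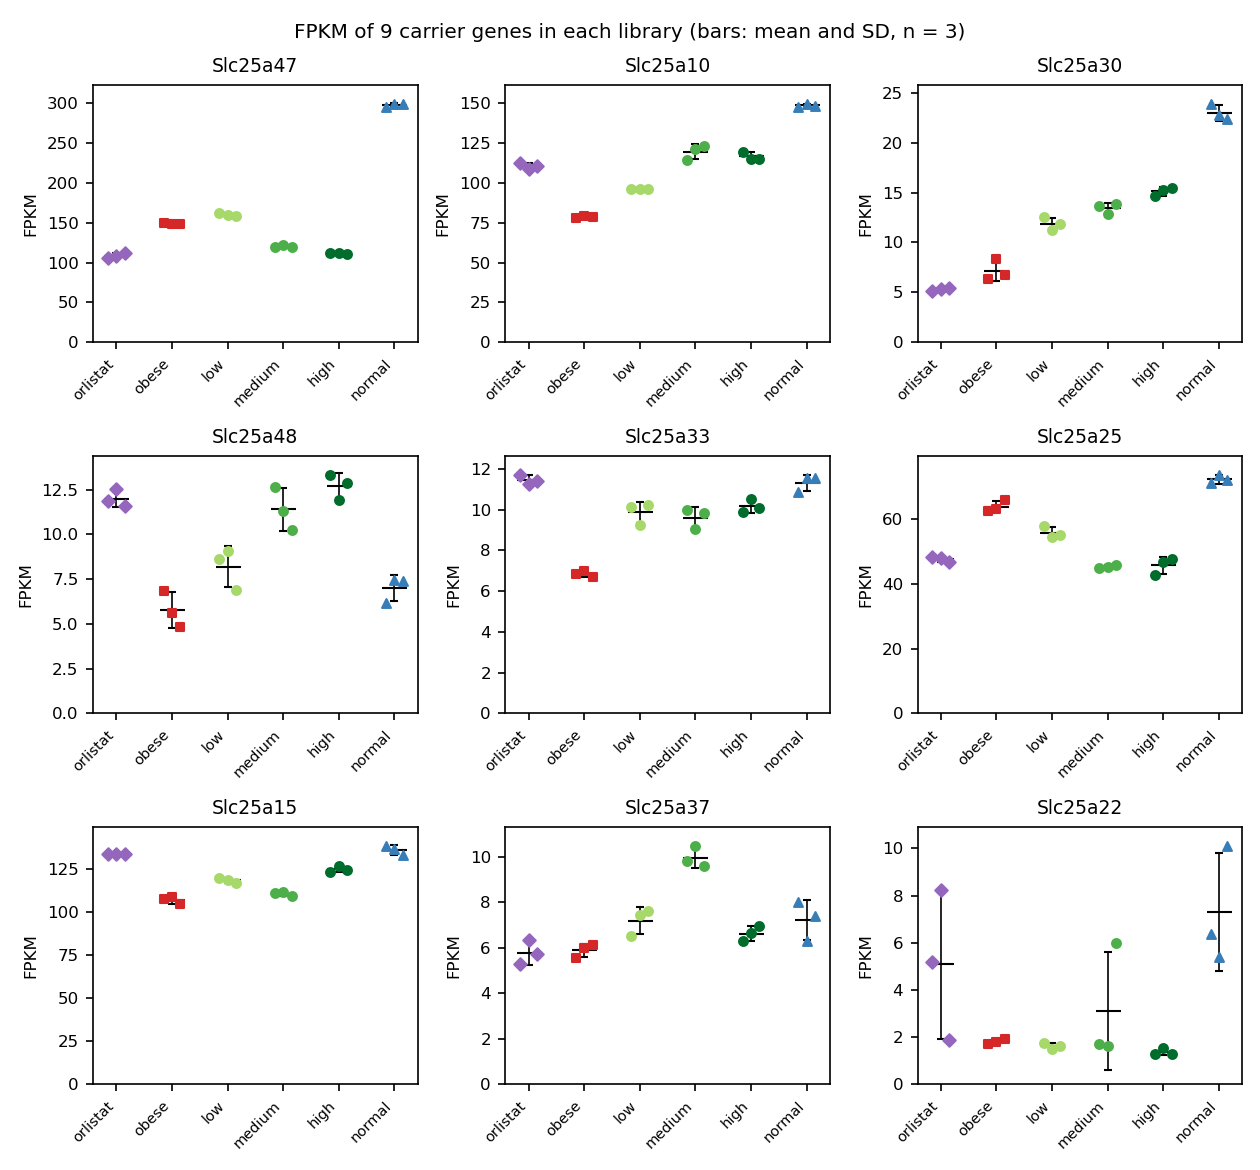
FPKM of 9 carriers in each library (symbols), with the group mean and SD (n = 3) as bars, for orlistat, the obese control, the low, medium and high plantain doses and the normal control. Slc25a30 and Slc25a48 step up from the obese control along the doses, Slc25a10 lies above and Slc25a25 below the obese control at each dose, and Slc25a22 splits within orlistat and medium-dose plantain.

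The 2 urea cycle carriers rose in orlistat and at the high dose. Slc25a15 had 134, 134 and 134 FPKM in orlistat, against 108, 109 and 104 FPKM in the obese control (0.32 ± 0.02 SE, adjusted p = 3.2e-09), and overlapped the normal control's 139, 136 and 133 FPKM. In the series it stood at 107 FPKM in the obese control, 118 at the low, 111 at the medium and 125 FPKM at the high dose, with the medium dose not called. Slc25a13 had 104, 101 and 108 FPKM in orlistat and 112, 112 and 116 FPKM in high-dose plantain, against 92.8, 88.2 and 86.5 FPKM in the obese control. No library of either treatment overlapped the obese control, and the log2 differences were 0.22 and 0.34. At the low and medium doses it was not called. The folate and FAD carrier Slc25a32 had 14.2, 14.6 and 14.3 FPKM in orlistat, against 10.2, 9.80 and 9.16 FPKM in the obese control (0.52 ± 0.07 SE, adjusted p = 8.5e-06), and at the high dose its log2 difference was 0.29.

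Mitoferrin 1 and mitoferrin 2, which import iron for heme and iron-sulfur clusters, went separate ways. Slc25a37 stood at 5.89 ± 0.30 FPKM in the obese control, 7.19 ± 0.59 at the low, 9.97 ± 0.47 at the medium and 6.62 ± 0.33 FPKM at the high dose. It peaked at the medium dose, whose 9.82, 10.5 and 9.58 FPKM lay above all other plantain libraries (0.67 ± 0.08 SE, adjusted p = 4.4e-06). In orlistat it had 5.28, 6.35 and 5.74 FPKM, overlapping the obese control. Slc25a28 had 8.05, 7.33 and 7.74 FPKM in orlistat and 7.23, 7.32 and 6.85 FPKM in high-dose plantain, against 10.6, 9.62 and 10.2 FPKM in the obese control, with no overlap (log2 differences -0.35 and -0.45). Slc25a37 is abundant in red cell precursors. Of 9 red blood cell markers tested, 2 rose and 2 fell in orlistat (22.2% each), near the 26.2% and 25.6% of all genes. At the medium dose 2 rose and 5 fell (22.2% and 55.6%), against 21.8% and 20.1% of all genes. The summed level of these markers was 1131 to 1386 FPKM in medium-dose libraries and 1392 to 1676 FPKM in obese control libraries, and its part in Slc25a37 was not tested.

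The heme-linked glycine carrier Slc25a38 was called lower in all 4 treatments, with log2 differences of -0.14 to -0.25. As TPM none of these 4 calls held (-0.19 became -0.03 in orlistat and -0.25 became -0.08 in high-dose plantain). The low-dose call was also lost without low-dose library 1 (-0.11) or 3 (-0.15) or obese control library 1 (-0.15) or 3 (-0.12). Slc25a43 was lower in orlistat (0.629, 0.619 and 0.652 FPKM), the medium dose (0.708, 0.446 and 0.676 FPKM) and the high dose (0.782, 0.54 and 0.459 FPKM), against 0.96, 1.17 and 0.941 FPKM in the obese control. It had few reads, and its orlistat call was lost as TPM (adjusted p = 0.062) or without obese control library 2 (-0.26). The medium-dose call was lost without that library (-0.28) or medium-dose library 2 (-0.26). Slc25a1 was called lower in orlistat and at the high dose (-0.25 and -0.16), but as TPM these were -0.08 and 0.02. Slc25a3 in orlistat turned from -0.08, called lower, to 0.09 as TPM, where it was called higher (adjusted p = 0.00195).

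Smaller sets filled out the list. ANT1 (Slc25a4) rose in orlistat and at the medium and high doses (0.34, 0.29 and 0.34). It had 3.99, 4.79 and 5.21 FPKM in orlistat, 4.78, 4.72 and 3.94 FPKM at the medium and 4.002, 5.18 and 4.78 FPKM at the high dose, against 3.62, 3.82 and 2.98 FPKM in the obese control. Without obese control library 3 these calls were lost, at 0.26, 0.21 and 0.26 (adjusted p = 0.061, 0.14 and 0.063). The orlistat call was also lost without orlistat library 3, the medium-dose call without medium-dose library 1 or 2 and the high-dose call without high-dose library 2. Slc25a40 rose in orlistat (0.29) and at the medium and high doses (0.50 and 0.32). The coenzyme A carrier Slc25a42 rose at all 3 doses, though 9 alternatives ended its low-dose call, with 28.7, 29.6 and 30.4 FPKM at the medium and 28.5, 28.4 and 29.7 FPKM at the high dose, against 25.5, 24.4 and 25.1 FPKM in the obese control. Slc25a34, with no settled substrate, had 2.28, 1.87 and 1.66 FPKM at the high dose, against 0.982, 0.939 and 0.916 FPKM in the obese control (0.59 ± 0.14 SE, adjusted p = 0.0026). Slc25a36, a pyrimidine nucleotide carrier counted on 9 to 41 reads in a library, was called lower at the high dose (-0.47, adjusted p = 0.046). That call was lost without obese control library 1 (-0.27, adjusted p = 0.24) or 2 (-0.53, adjusted p = 0.053), and without high-dose library 1 (-0.44, adjusted p = 0.11) or 3 (-0.36, adjusted p = 0.16). Slc25a12 was called at the low dose, with 2.57, 2.51 and 2.40 FPKM, against 2.98, 3.21 and 3.00 FPKM in the obese control (-0.22 ± 0.07 SE, adjusted p = 0.021). That call was lost without low-dose library 3 (-0.20) or obese control library 2 (-0.19).

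**Figure D4:**
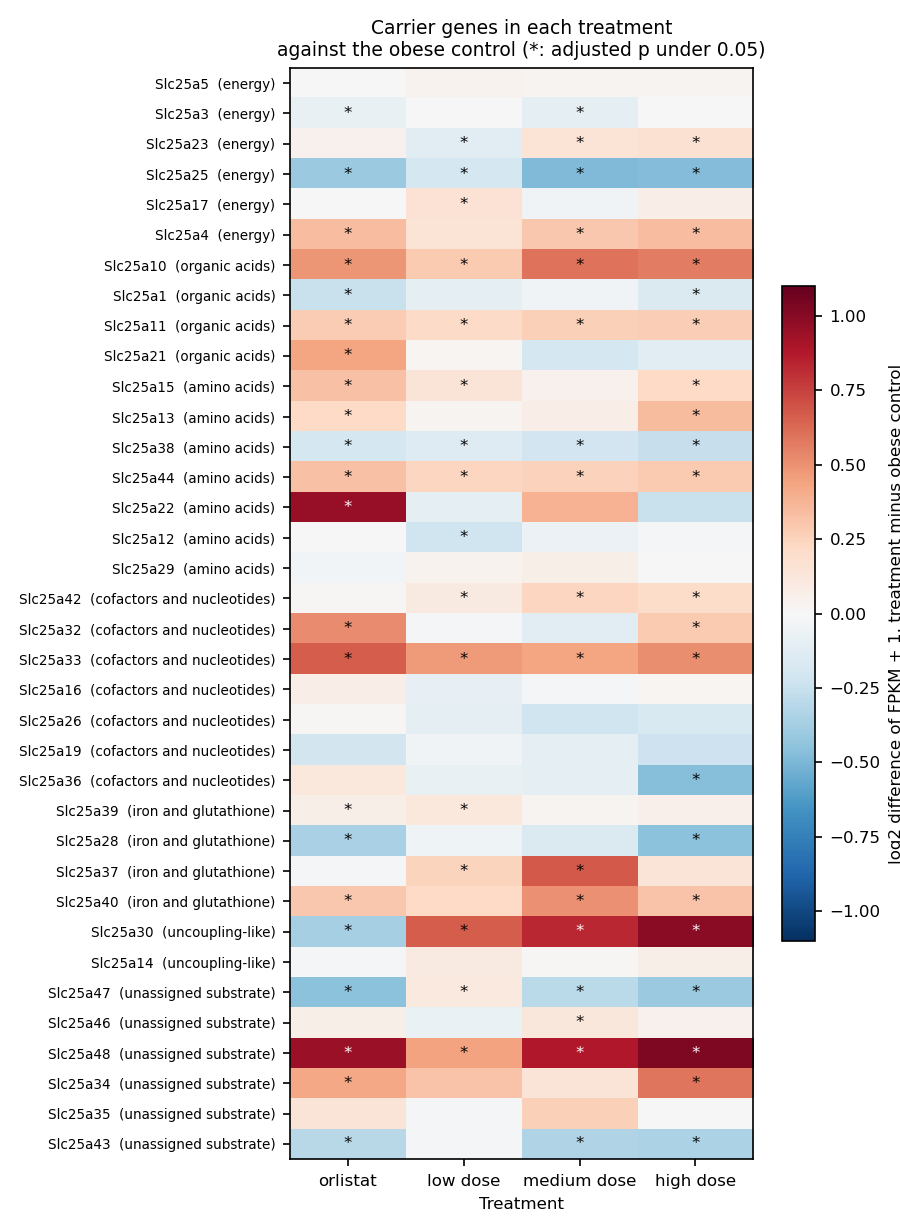
Log2 difference of FPKM + 1 between each treatment (columns) and the obese control for 36 carriers (rows, with their role group); red is higher in the treatment, blue lower, and an asterisk marks an adjusted p below 0.05. Slc25a48, Slc25a10 and Slc25a33 are red in all 4 columns, Slc25a25 is blue in all 4, and Slc25a30 is blue in orlistat and red at each dose.

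The 3 plantain doses differed from each other for 18 of 36 carriers by an F-test, against 38.4% of all genes. After Slc25a47 the smallest adjusted p-values belonged to Slc25a10 (1.8e-07), Slc25a13 (4.4e-06), Slc25a23 (5.6e-06) and Slc25a25 (1.2e-05). A linear trend over obese control, low, medium and high dose, with equal steps since no amounts were given, was called for 16 carriers upward and 6 downward, against 26.5% and 26.0% of all genes. Slc25a48, Slc25a30 and Slc25a10 had the steepest rises and Slc25a25 and Slc25a47 the steepest falls. A called slope did not mean a steady step at each dose: Slc25a37 peaked at the medium dose, and Slc25a47 rose at the low dose before it fell.

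High-dose plantain and orlistat were also compared directly. Of the 36 carriers, 5 were higher in high-dose plantain (13.9%) and 6 lower (16.7%), against 8.45% and 6.67% of all genes. As TPM 3 of 40 were higher and 6 lower (7.5% and 15%), against 7.37% and 5.27% of all genes. Of the 11 calls, 4 held in every alternative. With 1 library left out the count of lower carriers was 2 without orlistat library 1, 3 without orlistat library 2 or 3 or high-dose library 1 or 3, and 4 without high-dose library 2. Without orlistat library 2, 3 were higher. For 14 of the 36 carriers (38.9%) the groups did not overlap, against 30.6%. Slc25a30 had by far the largest rise. The next were Slc25a42, with 28.5, 28.4 and 29.7 FPKM in high-dose plantain, against 24.4, 25.4 and 25.7 FPKM in orlistat (0.19 ± 0.04 SE, adjusted p = 0.0014), then Slc25a13 and Slc25a23, both with a log2 difference of 0.12. The Slc25a13 call was lost without orlistat library 1 or 2 or high-dose library 3 (0.10 to 0.12), and the Slc25a23 call without library 2 of either group (0.10 in both). The oxodicarboxylate carrier Slc25a21, of lysine and tryptophan breakdown, had 0.929, 0.799 and 0.998 FPKM in high-dose plantain, against 1.72, 1.93 and 1.79 FPKM in orlistat. These did not overlap (-0.56 ± 0.08 SE, adjusted p = 0.00016), and orlistat was also called above the obese control's 1.14, 0.881 and 1.25 FPKM. Slc25a32, Slc25a33 and Slc25a15 were lower, with log2 differences of -0.23, -0.16 and -0.10. The Slc25a32 call was lost without any single orlistat library (-0.22 to -0.24) or high-dose library 2 (-0.18), and the Slc25a33 call without library 1 or 3 of either group (-0.14 to -0.16). Slc25a22 and Slc25a36 were called lower in high-dose plantain (-1.21 and -0.58), but 9 of the alternatives ended the call of Slc25a22 and 10 that of Slc25a36. For Slc25a48 (log2 difference 0.08 ± 0.11 SE) and Slc25a47 (0.04 ± 0.02 SE) the direct test made no call.

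Genes that work with the carriers were described from lists of enzymes, import factors and regulators. Of 28 enzymes that use carrier substrates, 21 were lower (75.0%) and 3 higher (10.7%) in the obese control than in the normal control, against 28.4% and 26.7% of all genes, with a median log2 difference of -0.22. ATP citrate lyase (Acly), which splits the citrate exported by Slc25a1, had 17.5, 16.6 and 17.0 FPKM in the obese control, against 108, 107 and 108 FPKM in the normal control (-2.59 ± 0.03 SE, adjusted p = 3.7e-17). Argininosuccinate synthase (Ass1), which uses the citrulline and aspartate sent out by Slc25a15 and Slc25a13, had 553, 547 and 563 FPKM in the obese control, against 994, 976 and 986 FPKM in the normal control (-0.83 ± 0.02 SE, adjusted p = 1.3e-14). Neither enzyme overlapped between the groups. The folate enzyme Mthfd1 and the heme enzyme Alas1 were lower, with log2 differences of -0.90 and -0.997.

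Against the obese control, 15 of the 28 enzymes rose and 7 fell in orlistat, 10 and 4 in low-dose, 14 and 5 in medium-dose and 12 and 4 in high-dose plantain. The shares that rose were 53.6%, 35.7%, 50% and 42.9%, against 26.2%, 18.3%, 21.8% and 26.6% of all genes, and the shares that fell were 25.0%, 14.3%, 17.9% and 14.3%, against 25.6%, 14.8%, 20.1% and 25.3%. Carbamoyl phosphate synthase (Cps1), the first step of the urea cycle, rose by 0.56 in orlistat and by 0.26, 0.37 and 0.54 in rising dose. Acly stood at 19.3 ± 0.52 FPKM in orlistat and 15.7 ± 0.47, 20.7 ± 1.0 and 17.9 ± 0.14 FPKM in rising dose, against 17.0 ± 0.44 FPKM in the obese control and 108 ± 0.68 FPKM in the normal control. High-dose plantain differed from orlistat for 18 of the 28, with 11 higher (39.3%, against 8.45% of all genes) and 7 lower (25.0%, against 6.67%), among them ornithine aminotransferase (Oat), with a log2 difference of -0.40.

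Of 12 tested genes for carrier import, which guides these proteins into the inner membrane, 4 rose (33.3%) and 1 fell (8.3%) in the obese control against the normal control, where 26.7% and 28.4% of all genes did. The gene that fell was Tomm70, the outer membrane receptor for carrier precursors, at 18.6, 20.6 and 20.1 FPKM in the obese control, against 31.1, 31.1 and 31.8 FPKM in the normal control (-0.64 ± 0.05 SE, adjusted p = 1.8e-08). Timm13, a small chaperone of the intermembrane space, rose by 0.49. Against the obese control 4 of the 12 fell in each treatment, and 1, 3, 1 and 1 rose in orlistat and rising dose. The shares that rose were 8.3%, 25.0%, 8.3% and 8.3%, against 26.2%, 18.3%, 21.8% and 26.6% of all genes. The share that fell was 33.3% in each, against 25.6%, 14.8%, 20.1% and 25.3%. In all 4 treatments Tomm70 rose (0.51 in orlistat, 0.32, 0.31 and 0.50 in rising dose) and Timm13 fell (-0.48, -0.20, -0.21 and -0.37). Of 20 other mitochondrial transport genes, 4 rose (20%) and 8 fell (40.0%) in the obese control against the normal control, beside 26.7% and 28.4% of all genes. In orlistat 10 rose and 4 fell, in low-dose plantain 8 and 1, in medium-dose 7 and 5 and in high-dose 10 and 2. The shares that rose were 50%, 40.0%, 35.0% and 50%, against 26.2%, 18.3%, 21.8% and 26.6% of all genes, and those that fell were 20%, 5.0%, 25.0% and 10%, against 25.6%, 14.8%, 20.1% and 25.3%. The serine carrier Sfxn1 (-0.62) was lower in the obese control than in the normal control, and it rose in each treatment, by 0.26 to 0.45. This list also held Ucp2, Mtch1 and Mtch2, which belong to the carrier family under other symbols. In the obese control against the normal control, Ucp2 was higher (0.60, adjusted p = 4.1e-08), Mtch2 was lower (-0.27) and Mtch1 was not called (0.06).

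Of 12 regulators of mitochondrial genes, 7 fell (58.3%) and 1 rose (8.3%) in the obese control against the normal control, where 28.4% and 26.7% of all genes did. The nuclear receptor Ppara had 16.7, 15.9 and 15.4 FPKM in the obese control, against 31.0, 28.9 and 30.02 FPKM in the normal control (-0.86 ± 0.07 SE, adjusted p = 3.1e-08), and the coactivator Ppargc1a was lower too (-0.80). The mitochondrial DNA polymerase Polg was the riser (0.72). Against the obese control 4 rose and 2 fell in orlistat, 3 and 1 in low-dose, 3 and 0 in medium-dose and 6 and 1 in high-dose plantain. Risers were thus 33.3%, 25.0%, 25.0% and 50% of the list, against 26.2%, 18.3%, 21.8% and 26.6% of all genes, and fallers 16.7%, 8.3%, 0.0% and 8.3%, against 25.6%, 14.8%, 20.1% and 25.3%. Ppara was higher in each treatment, by 0.32 at the low, 0.33 at the medium and 0.67 at the high dose and by 0.51 in orlistat. The share of reads from the mitochondrial genome was 5.73% ± 0.23 in orlistat and 6.92% ± 0.33, 6.52% ± 0.37 and 4.64% ± 0.06 in rising dose, against 8.11% ± 0.26 in the obese control. The obese control share stood against 6.44% ± 0.23 in the normal control (SD, n = 3 each).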

How the data were processed

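Liver total RNA (1 µg for each library) was made into libraries with the NEBNext Ultra RNA kit, per the labels' protocols. The submitters' processing notes name CASAVA 1.7, Bowtie 0.12.2 and the mouse build mm8, while the genes carry rat Ensembl identifiers; none of the sources used here gives the rat build, the counting method or its use of strand. The authors deposited FPKM for each gene and library. The FPKM values were multiples of a value per read at a tolerance of 0.001 in all libraries, which gave the recovered reads and 1 of the alternatives. FPKM sums ran from 531108 to 609662, so each library was also rescaled to TPM.

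All 18 libraries entered 1 limma fit (limma 3.58.1, R 4.3.3; moderated test with a mean-variance trend) of 6 groups on log2(FPKM + 1), with Benjamini-Hochberg adjustment over 11945 genes. The fit was tested on simulated data in which few genes changed, in 1 group only. That simulation cannot speak to the effect of scaling. Libraries of a group were not duplicates, differing by 2.99 to 6.18 times the sampling variance. An exact permutation test of 3 against 3 cannot go below 0.1. All carriers could be named; values in every library were given for the 6 most abundant and for up to 5 rises and 5 falls in each comparison, or up to 5 by smallest p in the F-test and the trend, and of other lists up to 4 genes by smallest p. Further values shown were chosen after they were seen. The members, lists and alternatives were chosen with earlier results of these data known. Promoters came from RefSeq (GRCr8), whose coordinates are not those of the table.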

Additional observations from a re-analysis of the deposited data

How the results depend on the processing

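Alternatives were other pseudocounts and filters, TPM, quantile normalization, voom on recovered reads, a fit of only the groups compared, a replicate block and each library left out. All calls of a comparison held in every alternative for 20 of 22 carriers (obese against normal control), 14 of 22 (orlistat), 9 of 16, 11 of 17 and 17 of 21 (low, medium and high dose), 4 of 11 (high dose against orlistat), 19 of 22 (trend) and 13 of 18 (F-test). Rescaled to TPM, where 40 carriers passed the filter, falls numbered 4 in orlistat, 2 at the low and 3 at the medium dose. For high dose against orlistat, rises numbered 3 as TPM, quantile normalized, by voom and in the fit of only the groups compared, and falls 3 by voom. The cause was not tested.

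Slc25a23 in the obese against the normal control turned to -0.019 as TPM. In orlistat, Slc25a3 turned to 0.088, 0.057 and 0.0085 and Slc25a5 to 0.17, 0.13 and 0.085 (TPM, quantile, voom), and Tfam to 0.0054 as TPM. Slc25a1 turned to 0.021 as TPM at the high dose and to 0.018 in the trend, where Slc25a3 turned to 0.050, 0.020 and 0.021. TPM divides each library by its FPKM sum, which was 531108 to 549373 in orlistat and 600174 to 609662 in the obese control. Why differences also turned with quantile normalization or voom was not tested.

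With 1 library left out, counts of rises and falls ran over 2 to 3 and 19 to 19 (obese against normal control), 10 to 13 and 7 to 8 (orlistat), 9 to 11 and 1 to 4 (low dose), 10 to 13 and 5 to 6 (medium dose), 13 to 15 and 6 to 8 (high dose), 3 to 6 and 2 to 4 (high dose against orlistat) and 15 to 16 and 5 to 8 (trend), and the F-test over 14 to 19. The low-dose count of 1 fall came without low-dose library 3, and 2 to 3 falls or rises in high dose against orlistat came without orlistat library 1, 2 or 3 or high-dose library 1 or 3. A block for the replicate number gave 3 rises and 20 falls in obese against normal control, 13 and 8 in orlistat, 11 and 4, 13 and 5 and 14 and 6 in rising dose and 5 and 4 in high dose against orlistat. The labels do not say what the numbers share, and same-numbered libraries did not deviate together (45 correlations, -0.092 to 0.066). Reads limit Slc25a36 (9 to 41 in a library) and Slc25a43 (17 to 60). They were also few for other called carriers, among them Slc25a34 (19 to 75), Slc25a21 (33 to 80) and Slc25a40 (35 to 93).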
